A study of Mus musculus with 6 samples.

Results

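The SR proteins and the heterogeneous nuclear ribonucleoproteins (hnRNPs), families of RNA-binding proteins that choose splice sites, were read on the arrays by 91 probe sets of 29 genes, out of 45037 probe sets that were not controls and 18193 genes with a probe set of their own. A probe set, a group of short oligonucleotides read as 1 signal, was included when the platform annotation gave it a single gene symbol that began with Srsf and a digit or with Hnrnp. There were 33 probe sets for 10 SR genes and 58 for 19 hnRNP genes. The arrays compared natural killer cells (NKC) of 3 mice lacking the transcription factor Runx3 (Runx3-/-) with NKC of 3 wild-type (WT) mice, and all 6 mice were 6 weeks old and of the ICR strain. The NKC came from the spleen, where negative selection and a sort for the surface antigen DX5 had purified them, and were resting, as no stimulus was given. Each array held RNA of an individual mouse, although each sample is labelled for sex as both male and female. The genotype is that of the mouse, so cells other than NKC lacked Runx3 too.

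SR proteins carry RNA recognition motifs and a domain rich in arginine and serine, which SRPK and CLK kinases phosphorylate. They bind enhancer sequences, mostly in exons, and recruit the spliceosome to nearby splice sites. hnRNPs coat nascent transcripts and often silence splice sites, and several of them also act in transport, stability or translation of messenger RNA. Many genes of both families limit their own output through poison exons, which carry a premature stop codon and send the transcript to nonsense-mediated decay, so 1 gene can give several transcripts that different probe sets need not read alike.

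Signals were log2 values, and a probe set was tested when its log2 signal was at least 5 on at least 1 array. Between 37.8% and 39.4% of the probe sets reached log2 5 on each array, and correlations between arrays were 0.944 to 0.972 within groups and 0.925 to 0.958 between groups. The Runx3 probe set 1440275_at read 7.76, 8.51 and 8.68 in Runx3-/- and 10.11, 11.56 and 10.73 in WT, 5.59-fold lower (limma, adjusted p = 0.0960), and the groups did not overlap. The second Runx3 probe set, 1421467_at, was dim, at 4.57, 3.77 and 4.65 against 4.63, 4.59 and 5.88, and overlapped between the groups (-0.70, limma, adjusted p = 0.462). Marker and process lists were counted at the study's thresholds, which called 4.89% of all genes higher and 8.86% lower. The summed linear signal of 11 NK cell markers was 163908 to 184757 in Runx3-/- and 161730 to 198046 in WT, and 1 of the 11 was lower at the study's thresholds. Of 10 tested markers of basophils and mast cells, 7 were higher, with sums of 23118 to 40803 in Runx3-/- and 8297 to 9947 in WT. Of 9 B and plasma cell markers 3 were higher (2761 to 4272 against 1005 to 2616), and of 9 macrophage markers 3 were higher (603 to 9963 against 1830 to 2492). None of the 4 tested T cell markers and 1 of 8 neutrophil markers met the thresholds. Of 22 cell cycle genes 13 were higher, with mean log2 signals of 9.46 to 10.08 against 8.22 to 9.19. Of 11 heat shock genes 7 were lower, with sums of 42806 to 57515 against 76768 to 90071. The part of these lists in the results on SR and hnRNP probe sets was not tested. In sorted cells measured in bulk, fewer cells of a type and less RNA per cell cannot be told apart.

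Of the SR and hnRNP probe sets tested, 6 were called different between Runx3-/- and WT NKC, and 0 after adjustment over all probe sets. Of the 6 called, 5 were not the brightest probe set of their gene, but only 28 of the 84 tested were the brightest. Of the 91, 84 passed the filter on low signals (31 SR and 53 hnRNP), and 80 were at log2 5 or more on all 6 arrays. By the study's criteria, a change of 1.5-fold or more and an unadjusted p below 0.05, here called its thresholds, 6 of the 84 were called (7.14%), beside 13.6% of all 19120 probe sets tested. These shares are at unlike signal levels. The median log2 signal was 10.68 for members and 8.12 for all tested, and calls were rarer at high signal, as given by level below. Higher in Runx3-/- were 5 of them, probe sets of Srsf5, Hnrnpd, Hnrnpdl, Hnrnpr and Hnrnpu, beside 6.85% of all, and 1 was lower, a probe set of Srsf10, beside 6.78%. With Benjamini-Hochberg (BH) adjustment over all probe sets, 0 of the 84 passed 5% by limma, beside 0.0837% of all. The lowest adjusted p was 0.166, and 8 of the 84 had an unadjusted p under 0.05, beside 14.9%. Hnrnpa1 and Hnrnpdl gave the 2 of these that fell short of 1.5-fold. The number called moved with single arrays, and so did the share of all probe sets. Without Runx3-/- replicate 1 it was 12 (14.3%, beside 13.1% of all), 10 of them higher, and without WT replicate 3 it was 10 (12.05%, beside 9.75%), 8 of them higher. Without Runx3-/- replicate 2 it was 5 (5.95%, beside 9.33%), 3 of them higher, and without WT replicate 1 it was 13 (15.5%, beside 20.1%), 12 of them higher. With array weights, which count variable arrays less, 14 were called (16.7%, beside 18.3%), and with each array centred on its median 9 were (10.6%, beside 13.7%). The share of members called was thus above that of all probe sets in some of these settings and below it in others. Of the members not called, 21 met the thresholds under at least 1 of 16 alternatives. The number called lower was 2 without any 1 of the Runx3-/- arrays or without WT replicate 3.

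Absence of a call was not evidence of equal levels. The change was within 1.5-fold either way in 72 of the 84 probe sets, beside 14459 of all 19120. Its 95% confidence interval stayed within 1.5-fold in only 10 of the 84, 4 SR and 6 hnRNP, beside 1229 of all. The median absolute change was 0.25 on the log2 scale, beside 0.31 over all probe sets tested.

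**Figure D1:**
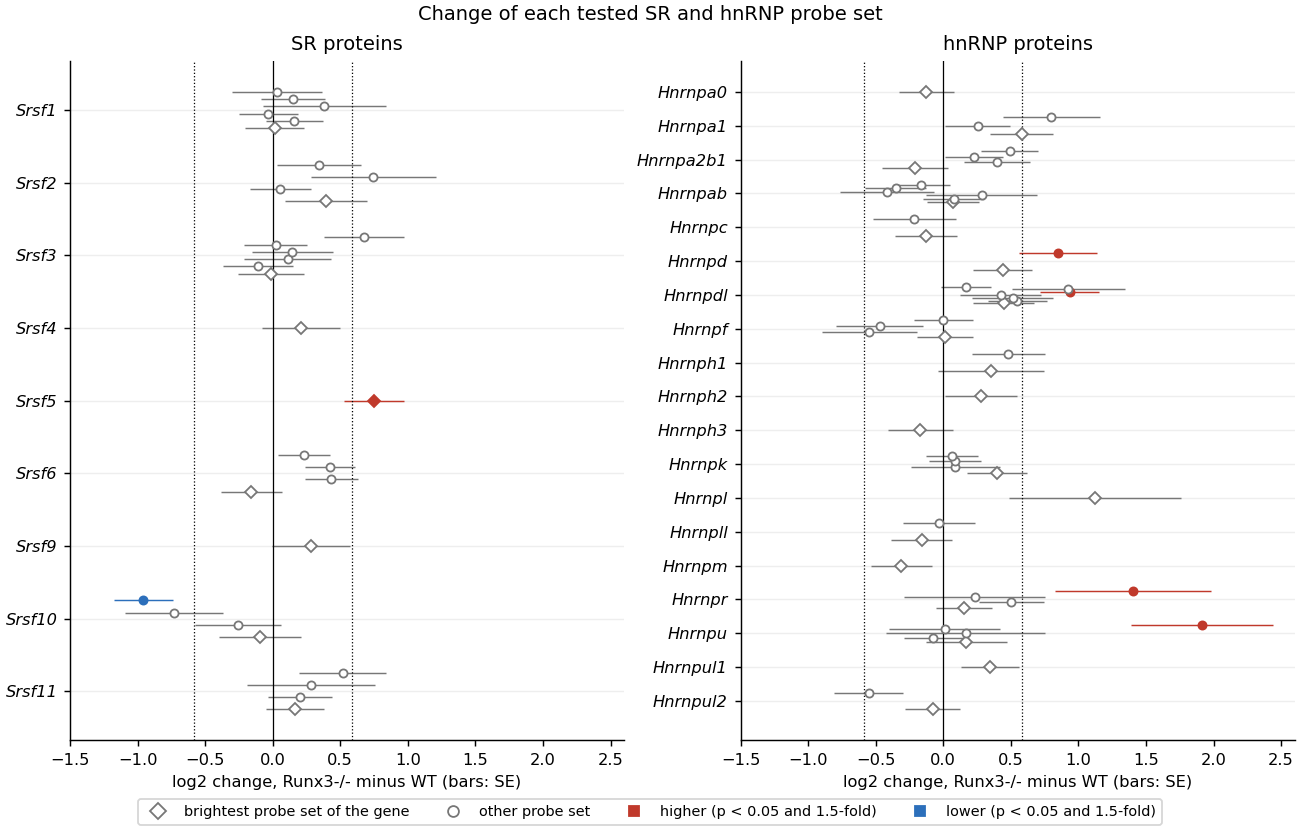
Log2 change, Runx3-/- minus WT, of each of the 84 tested probe sets, by gene and family. Points are probe sets with the limma standard error as bars, diamonds are the brightest of each gene, filled points met the study's thresholds and dotted lines mark 1.5-fold. The filled points, 5 higher and 1 lower, were brightest of their gene only in Srsf5, and 28 of the 84 points are diamonds.

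Direction was uneven. The change was above 0 in 60 of 84 tested members (71.4%), beside 44.4% of all probe sets tested, and the median change was 0.16 for SR and 0.17 for hnRNP probe sets, beside -0.06 for all. All 3 Runx3-/- arrays lay above all 3 WT arrays in 14 member probe sets (16.7%), beside 7.99% of all, and below them in 2, beside 13.7%. Most of the 14 came from Hnrnpdl, Srsf6 and Hnrnpd. Probe sets of a gene are not independent, so these shares are not counts of genes. The share above 0 ranged from 60.7% without Runx3-/- replicate 2 to 78.6% without Runx3-/- replicate 1. Between the same alternatives the SR median ranged from 0.07 to 0.26 and the hnRNP median from 0.04 to 0.35. The arrays of a group were not alike in these families. Runx3-/- replicate 1 was the lowest of its group in 62 of the 84 members (73.8%), beside 33% of all probe sets, and WT replicate 1 lay nearest the Runx3-/- mean in 44 (52.4%), beside 44.5%. The mean log2 signal of the SR members was 9.64, 10.05 and 9.995 in Runx3-/- and 9.76, 9.62 and 9.88 in WT. That of the hnRNP members was 10.40, 10.86 and 10.71 in Runx3-/- and 10.55, 10.35 and 10.38 in WT. In both families the groups overlapped, through Runx3-/- replicate 1.

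The promoters of 4 of the genes called are shown because Runx3 is a transcription factor that binds DNA. Each is the 250 bases before the first listed start of the gene (RefSeq, GRCm38.p6, written 5′ to 3′ on the strand of the gene), and capitals mark a RUNX motif, searched as TGTGGT or TGTGGC or TGCGGT or TGCGGC on both strands, overlapping matches included. The windows are Srsf5 at chr12:80945249-80945498 and Srsf10 at chr4:135855821-135856070, both on the plus strand, and Hnrnpdl at chr5:100039223-100039472 and Hnrnpu at chr1:178337816-178338065, both on the minus strand.
Srsf5: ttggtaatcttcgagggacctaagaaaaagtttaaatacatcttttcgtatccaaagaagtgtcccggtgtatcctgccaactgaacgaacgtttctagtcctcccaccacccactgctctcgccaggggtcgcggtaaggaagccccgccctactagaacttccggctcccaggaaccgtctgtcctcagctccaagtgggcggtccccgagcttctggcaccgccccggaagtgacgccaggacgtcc
Srsf10: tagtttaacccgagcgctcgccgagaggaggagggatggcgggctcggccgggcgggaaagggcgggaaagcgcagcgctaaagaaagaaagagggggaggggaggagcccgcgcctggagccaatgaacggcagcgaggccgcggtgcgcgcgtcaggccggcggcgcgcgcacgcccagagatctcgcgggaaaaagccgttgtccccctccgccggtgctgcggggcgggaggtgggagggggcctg
Hnrnpdl: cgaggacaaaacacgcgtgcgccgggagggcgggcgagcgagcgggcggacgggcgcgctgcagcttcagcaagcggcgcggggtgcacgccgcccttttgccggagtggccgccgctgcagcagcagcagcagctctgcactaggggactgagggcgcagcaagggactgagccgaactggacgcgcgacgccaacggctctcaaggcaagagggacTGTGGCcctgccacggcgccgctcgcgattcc
Hnrnpu: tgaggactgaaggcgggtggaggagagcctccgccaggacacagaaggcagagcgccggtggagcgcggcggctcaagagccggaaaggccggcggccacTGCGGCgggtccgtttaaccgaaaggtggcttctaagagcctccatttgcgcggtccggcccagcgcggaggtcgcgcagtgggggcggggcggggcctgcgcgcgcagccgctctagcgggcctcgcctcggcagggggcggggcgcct
Hnrnpdl and Hnrnpu held 1 match each, TGTGGC and TGCGGC, and the letters were not in the windows of Srsf5 and Srsf10. Of the called genes not shown, the first listed window of Hnrnpr held 3 matches and that of Hnrnpd 0. Among all 32851 promoter windows of that length, 38% held at least 1 match. Of 39 windows of the member genes 17 did (43.6%), and they belonged to 15 of the 27 genes with a window. A match is a description of the letters and not a binding site. Hnrnpll and Hnrnpul2 had no window in the table used.

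Srsf5, an SR protein of the classical type, was the only member gene called when each gene was read by its brightest probe set. Its single probe set, 1423130_a_at, read 11.56, 11.41 and 11.65 in Runx3-/- and 11.07, 10.53 and 10.77 in WT. Every Runx3-/- array was above every WT array. The difference was 0.75 ± 0.22 (log2, SE, n = 3 per group), 1.68-fold. By limma the adjusted p was 0.224 over all probe sets and 0.178 over genes read by their brightest probe set.

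Srsf10, whose protein lowers splicing when it loses its phosphates in heat-shocked or dividing cells, was the gene with a lower call. Probe set 1449121_at read 7.36, 7.75 and 7.44 in Runx3-/- and 8.32, 8.44 and 8.67 in WT, without overlap. The difference was -0.96 ± 0.22, 1.94-fold lower (limma, adjusted p = 0.166). Its other probe sets were less far apart and overlapped between the groups. Probe set 1418527_a_at changed by -0.73 ± 0.36 (adjusted p = 0.387), 1418526_at by -0.25 ± 0.32, and the brightest, 1423982_at, by -0.09 ± 0.30. All 4 were thus below 0, over a span from -0.09 to -0.96.

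Srsf6, a classical SR protein, had 3 probe sets with no overlap between groups and a brightest one that went the other way. Probe set 1416721_s_at read 11.35, 11.11 and 11.10 in Runx3-/- and 10.69, 10.76 and 10.81 in WT. Probe set 1447898_s_at read 10.88, 10.79 and 10.89 against 10.39, 10.45 and 10.45. These arrays were tight within groups, but the differences of 0.43 ± 0.19 and 0.43 ± 0.18 fell short of both thresholds (limma, adjusted p = 0.350 and adjusted p = 0.342). The third, 1416720_at, differed by 0.23, and the brightest, 1448454_at, by -0.16 ± 0.23 with overlap.

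The remaining SR genes were not called. Srsf1, the founding splicing activator of the family, changed by -0.03 to 0.38 over 6 tested probe sets. Srsf3, the smallest classical SR protein, changed by -0.11 to 0.14 in 5 probe sets and by 0.68 ± 0.30 in the dimmer 1438215_at (adjusted p = 0.348). Srsf2, a component of nuclear speckles, was above 0 in all 4 probe sets, by 0.06 to 0.74, the largest in 1415807_s_at, where WT read 6.51, 5.29 and 7.20. Srsf11, a protein that contacts early spliceosome components, was above 0 in all 4, by 0.16 to 0.52. The single probe sets of Srsf4 and Srsf9 changed by 0.21 ± 0.29 and 0.28 ± 0.29. Srsf12, read by 1437168_at at 3.62, 3.68 and 3.76 in Runx3-/- and 3.73, 3.86 and 3.73 in WT, did not reach log2 5 on any array and was not tested.

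Among the hnRNPs, Hnrnpdl and Hnrnpd, related genes whose proteins bind AU-rich elements in messenger RNA, had every tested probe set above 0. The same held for Hnrnpa1, Hnrnph1, Hnrnpk and Hnrnpr, and for the single tested probe sets of Hnrnph2, Hnrnpl and Hnrnpul1. All 7 probe sets of Hnrnpdl were above 0, by 0.17 to 0.94. Probe set 1424252_at read 9.91, 9.86 and 9.97 in Runx3-/- and 9.22, 9.05 and 8.67 in WT. The difference was 0.94 ± 0.22, 1.91-fold (limma, adjusted p = 0.177), with no overlap. The brightest, 1424251_a_at, read 13.30, 12.96 and 13.14 against 12.91, 12.75 and 12.40, a difference of 0.45 ± 0.23. Probe set 1449039_a_at was 1.46-fold higher (adjusted p = 0.316), just under the fold required, and 1428224_at differed by 0.92 ± 0.42, with Runx3-/- arrays spread from 7.59 to 9.16. In 4 of the 7 the groups did not overlap.

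Both tested probe sets of Hnrnpd were above WT without overlap. The brightest, 1425142_a_at, read 12.36, 12.35 and 12.54 in Runx3-/- and 11.77, 12.27 and 11.89 in WT, a difference of 0.44 ± 0.22 (adjusted p = 0.389). The called one, 1457568_at, was dim, at 5.82, 6.29 and 5.46 against 4.66, 5.12 and 5.24. It was at least 1.67-fold higher with values under log2 5 raised to 5, and 1.80-fold as measured (limma, adjusted p = 0.261). Without Runx3-/- replicate 2 its difference was 0.64, without WT replicate 1 it was 0.68, and neither met the thresholds.

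Hnrnpu, which encodes a nuclear scaffold protein that binds both RNA and chromatin, was called in 1 of 5 probe sets, a dim one. Probe set 1434390_at read 6.32, 6.78 and 6.57 in Runx3-/- and 5.94, 4.04 and 3.95 in WT. WT replicate 1 was nearer to the Runx3-/- arrays than to the other WT arrays, which were below log2 5. The difference was 1.92 ± 0.53, 3.78-fold as measured and at least 2.37-fold with values under 5 raised to 5 (limma, adjusted p = 0.206). Without WT replicate 1 it was 2.57, with an adjusted p of 0.0248 (limma), but both remaining WT arrays were then under log2 5. With these raised to 5 as well, it was at least 2.94-fold higher and did not pass BH 5% (limma, adjusted p = 0.0767), an alternative chosen after seeing the data. The other 4 probe sets changed by -0.08 to 0.17, including the neighbouring number 1434391_at at 0.01 ± 0.41.

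Hnrnpr, a close relative of the RNA-binding protein gene Syncrip, was called in 1 of 4 tested probe sets, and there the groups overlapped. Probe set 1438807_at read 7.28, 8.05 and 7.05 in Runx3-/- and 7.30, 5.88 and 5.004 in WT. WT replicate 1 was above 2 of the 3 Runx3-/- arrays. The difference was 1.40 ± 0.58, 2.65-fold (limma, adjusted p = 0.323). It met the thresholds in 9 of 16 alternatives, and leaving out any array other than WT replicate 1 ended the call, with differences of 0.88 to 1.61. The other tested probe sets changed by 0.15 to 0.50.

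**Figure D2:**
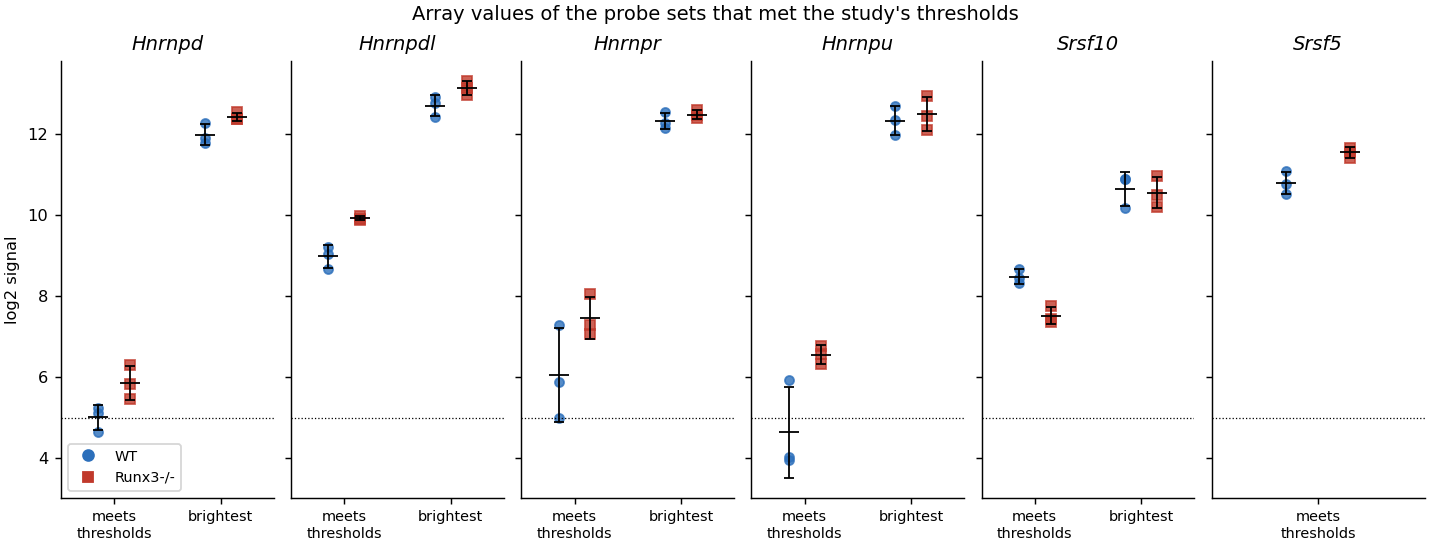
Log2 signal on each of the 6 arrays for the 6 probe sets that met the study's thresholds and, where another is brighter, the brightest probe set of the same gene. Squares are Runx3-/- and circles WT, with 3 arrays each, bars are the mean and SD, and the dotted line marks log2 5. In Hnrnpu the called probe set sits at 6.32 to 6.78 in Runx3-/- and 3.95 to 5.94 in WT, while the brightest overlaps between the groups.

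The A and B type proteins, the core packaging proteins that often silence exons, had no probe set called. Hnrnpa1 probe set 1436549_a_at read 10.77, 10.98 and 10.65 in Runx3-/- and 9.88, 10.38 and 10.40 in WT, without overlap. It was 1.49-fold higher (limma, adjusted p = 0.314), just under the fold required. Its other probe sets changed by 0.26 and, in 1455740_at, by 0.80, where a single array reached log2 5. Hnrnpa2b1, also a carrier of messenger RNA, was at -0.21 in the brightest probe set and above 0 in 3 others, by 0.23 to 0.49. The largest of these, 1433830_at, read 10.25, 10.52 and 10.53 in Runx3-/- and 10.14, 9.76 and 9.93 in WT, without overlap and 1.41-fold higher (limma, adjusted p = 0.339). It and Hnrnpa1 1436549_a_at each met the thresholds under 3 of the 16 alternatives. Hnrnpa0 was at -0.12. Hnrnpab, at 6 tested probe sets, changed by -0.42 to 0.28, and Hnrnpc, which binds runs of uridine, by -0.13 and -0.21.

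Of the proteins that bind other short sequences, none was called. Hnrnpf, which binds runs of guanine, was at 0.01 and 0.00 in 2 probe sets and at -0.55 and -0.47 in the others, where Runx3-/- replicate 1 was the lowest of the 6 arrays. Its relatives Hnrnph1, Hnrnph2 and Hnrnph3 changed by 0.35 and 0.48, by 0.28 and by -0.17. Hnrnpk, which binds runs of cytosine, was at 0.06 to 0.09 in 3 probe sets and at 0.40 ± 0.22 in the brightest, 1460547_a_at, which read 14.28, 14.73 and 14.77 in Runx3-/- and 14.31, 14.22 and 14.06 in WT, with overlap. Hnrnpl, which binds CA repeats, had the largest change among the brightest probe sets of member genes, 1.12 ± 0.64, without a call (adjusted p = 0.440). Without WT replicate 3 the change was 1.84 and met the thresholds (limma, adjusted p = 0.285). Its Runx3-/- arrays read 9.23, 9.62 and 9.18, and its WT arrays 6.85, 8.16 and 9.65, an SD of 1.40 in WT. Hnrnpll, known for the splicing of Ptprc in lymphocytes, was at -0.16 and -0.03, and Hnrnpm at -0.31 ± 0.22. Hnrnpul1 was at 0.35 with no overlap, and Hnrnpul2 at -0.08 and, in 1415765_at, at -0.55 ± 0.25, where all Runx3-/- arrays were below all WT arrays.

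Of the 6 calls, 3 lay at low signal. Of 12 members with a mean log2 signal under 7, 3 were called (25%), beside 18.1% of all probe sets in that range, and of 36 members at 11 or more, 1 was called (2.78%), beside 4.45%. Between 7 and 9, 1 of 9 was called (11.1%, beside 16.4%), and between 9 and 11, 1 of 27 (3.70%, beside 9.17%). The 3 in the dimmest range were Hnrnpd 1457568_at, Hnrnpr 1438807_at and Hnrnpu 1434390_at. The median absolute change was 0.60 in the dimmest range and 0.17 in the brightest, beside 0.42 and 0.19 over all. Of the members 36 of 84 lay at 11 or more, against 2654 of 19120 overall.

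**Figure D3:**
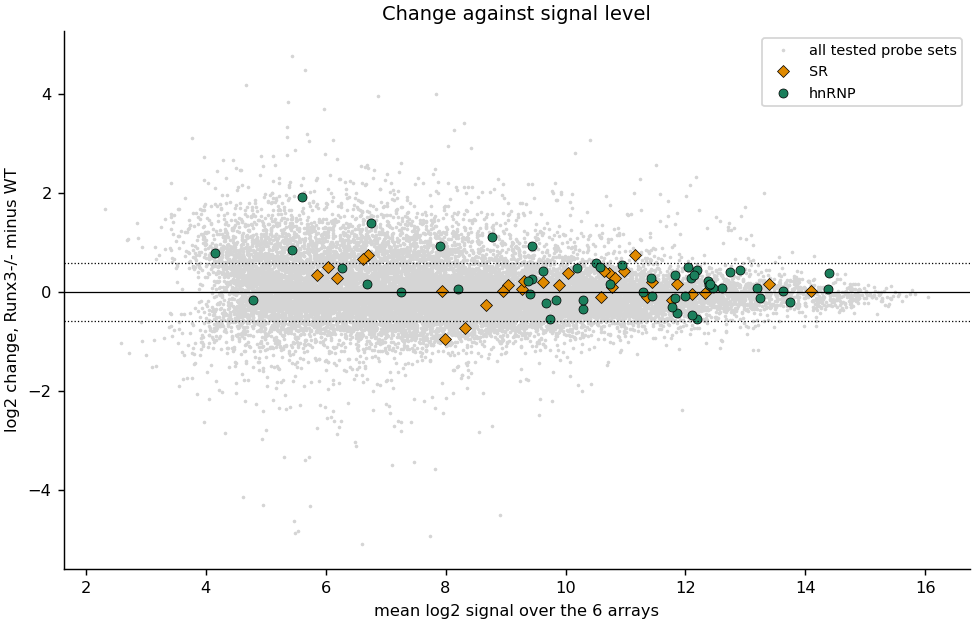
Log2 change, Runx3-/- minus WT, against the mean log2 signal over the 6 arrays. Grey points are all 19120 tested probe sets, diamonds are SR and circles are hnRNP probe sets, and dotted lines mark 1.5-fold. Of the 36 members at 11 or more, 1 was called, Srsf5 at 0.75, and their median absolute change was 0.17.

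With 1 probe set per gene, the brightest, 28 member genes were tested. Srsf5 was the 1 gene higher (3.57% of the 28, beside 4.89% of all genes), and 0 were lower, beside 8.86%. By limma with BH adjustment 0 of the 28 passed 5%, beside 0.608% of all genes, while 2 had an unadjusted p under 0.05. The gene medians were 0.16 for SR and 0.15 for hnRNP genes, beside -0.13 for all 9545 genes. Of the 28, 18 were above 0, beside 37.8% of all genes, and 26 were within 1.5-fold. The number of genes higher was 2 without Runx3-/- replicate 1, 3 without WT replicate 2 and 3 without WT replicate 3. The matching shares of all genes are not given here, nor are those with p under 0.05 or within 1.5-fold.

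The measured changes of the probe sets of a gene were not always of 1 sign, so the difference between them was tested directly. Among 19 member genes with at least 2 tested probe sets, all changes were above 0 in 8, all below 0 in 4, and both signs occurred in 7. Some of these signs rest on changes near 0, such as -0.03 in Srsf1 1453722_s_at. On each array the signal of the brightest probe set was subtracted from that of each other probe set of the gene, where both reached log2 5 on all 6 arrays, and this difference was compared between groups. It could be done for 52 pairs of 18 member genes among 5425 pairs in all. With BH adjustment 0 of the 52 passed 5% by limma, beside 0% of all. An unadjusted p under 0.05 was found in 8 of the 52, beside 450 of all 5425 pairs (8.29%). Of the 52, 6 were also at least 1.5-fold apart, beside 386 of all (7.12%). The groups did not overlap in 11 of the 52, beside 678 of all (12.5%). Each of these shares was larger among the 52 than among all pairs. Pairs of a gene share its brightest probe set and are not independent, and Srsf6 and Hnrnpa2b1 appeared repeatedly among the 8. The median absolute difference was 0.29, beside 0.20 over all pairs. The 8 fell to 5 without Runx3-/- replicate 2, to 3 without WT replicate 2 and to 5 without WT replicate 3. The share of all pairs in these settings is not given here.

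The 6 pairs with the smallest p came from 6 genes. In Srsf10, 1449121_at minus 1423982_at was -3.14, -3.20 and -2.76 in Runx3-/- and -2.56, -1.72 and -2.23 in WT, a change of -0.86 ± 0.27 (limma, adjusted p = 0.465). The difference was thus lower on every Runx3-/- array than on any WT array. In Hnrnpa2b1, 1433830_at minus 1420365_a_at was -2.98, -3.42 and -3.22 against -3.65, -4.16 and -3.90, a change of 0.70 ± 0.23 (adjusted p = 0.480). In Srsf3, 1438215_at minus 1416150_a_at was -5.41, -5.50 and -5.17 against -5.87, -6.40 and -5.88, a change of 0.69 ± 0.23 (adjusted p = 0.495). In both of these the groups were apart on all arrays, with the dimmer probe set relatively higher in Runx3-/-. The same held for Srsf6, where 1447898_s_at minus 1448454_at changed by 0.58 ± 0.22 (adjusted p = 0.557), and for Hnrnpdl, where 1424252_at minus 1424251_a_at changed by 0.49 ± 0.19 (adjusted p = 0.585). In Hnrnpr, 1438807_at minus 1427129_a_at changed by 1.25 ± 0.48 (adjusted p = 0.566), with WT spread from -7.27 to -5.24 and overlap between groups. By limma the adjusted p of these 6 thus ran from 0.465 to 0.585. Where on the transcripts the probe sets lie was not analysed here, so no transcript form can be assigned to them.

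**Figure D4:**
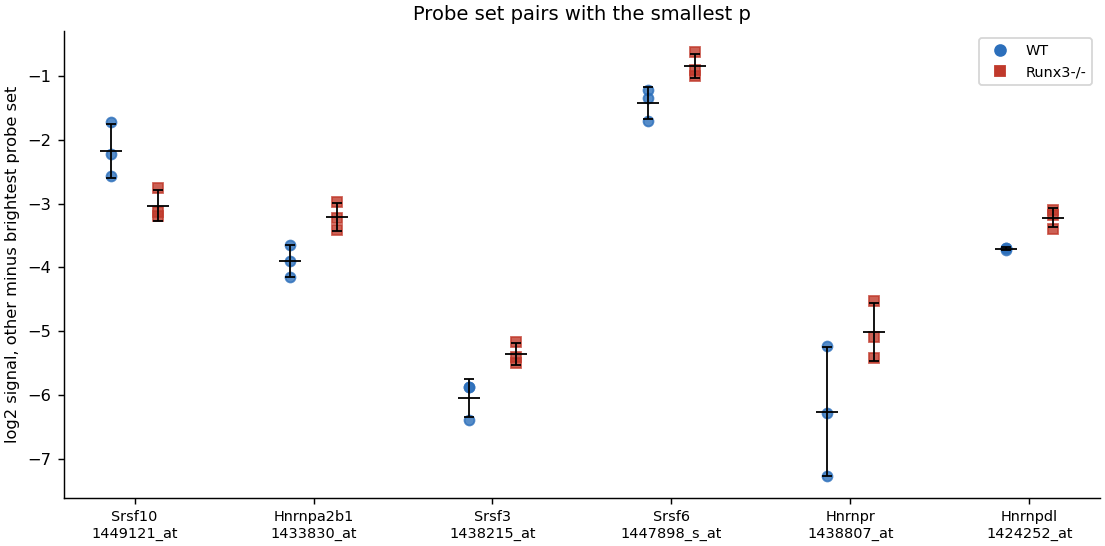
Log2 signal of a probe set minus that of the brightest probe set of its gene, on each of the 3 WT and 3 Runx3-/- arrays, for the 6 pairs with the smallest p. Bars are the mean and SD. The Srsf10 pair is lower in Runx3-/- by 0.86 and the other 5 are higher, by 0.49 to 1.25, with overlap in Hnrnpr.

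The rest of the splicing machinery, read by 7 lists, had 12 called genes. Of 155 listed genes 138 were tested, of which 7 were higher and 5 lower (8.70% together, beside 13.8% of all genes and 3.57% of the SR and hnRNP genes), 0 passed BH 5% by limma, and 12 had an unadjusted p under 0.05. Their median change was -0.05. List medians were -0.24 for the U4/U6.U5 and catalytic proteins, -0.10 for the U1 and U2 particles with the branch site factors, and -0.05 for the Sm core. They were 0.21 for the SR-related proteins, -0.05 for other regulators and 0.00 for the exon junction and decay factors.

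The list of SR protein kinases and import receptors, with a median change of -0.05, held 3 higher genes of 11, all kinases, beside 4.89% of all genes. Clk1, a nuclear SR kinase, read 12.33, 12.33 and 12.06 in Runx3-/- and 12.01, 11.06 and 10.88 in WT. It was 1.89-fold higher without overlap (limma over genes, adjusted p = 0.229). Clk4, its close relative, read 8.56, 8.79 and 8.64 against 8.16, 7.87 and 7.55, 1.75-fold higher without overlap (limma over genes, adjusted p = 0.164). Srpk3 met the thresholds as measured, but with values under log2 5 raised to 5 it was at least 1.45-fold higher, under the fold required, as only 1 array was above log2 5. Srpk1 and Srpk2, which phosphorylate SR proteins in the cytoplasm, changed by -0.10 and 0.25, and Clk2 and Clk3 by -0.35 and -0.32.

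Of the SR-related proteins, Pnisr was 1.76-fold higher and was called in 4 of 7 probe sets. Scaf8 was 2.01-fold higher in its brightest probe set and at -0.11 in both others. Among U1-associated genes Luc7l was 1.79-fold lower in its brightest probe set, while the other 3 changed by -0.14, -0.33 and -0.15. Luc7l3 was 1.76-fold higher in its brightest, and the others were both at 0.50 without a call. The helicases Dhx8 and Dhx38, which drive steps of the spliceosome, were each 1.60-fold lower. Rbm14 was 1.53-fold lower, called in 3 of 5 probe sets, and the decay factor Smg8 1.64-fold lower. Cirbp, an RNA-binding protein induced by cold, was also called. It read 8.74, 8.56 and 7.54 in Runx3-/- and 6.68, 6.17 and 6.41 in WT, 3.63-fold higher without overlap (limma over genes, adjusted p = 0.0695).

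**Figure D5:**
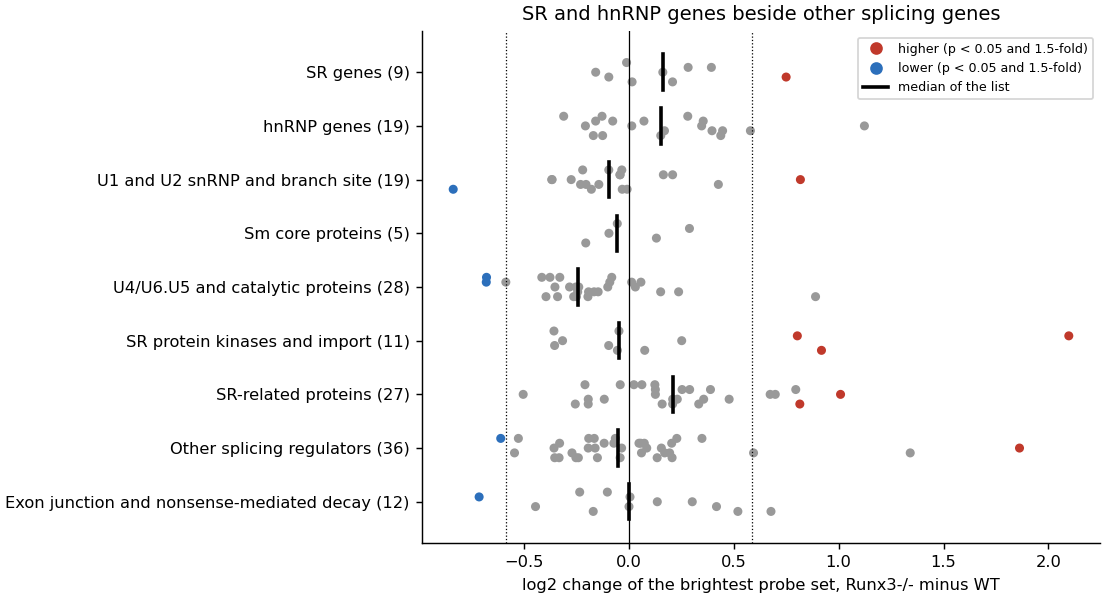
Log2 change of the brightest probe set of each tested gene, Runx3-/- minus WT, for SR and hnRNP genes and 7 other splicing lists, with the number of genes in brackets. Red and blue points met the study's thresholds, vertical bars are list medians and dotted lines mark 1.5-fold. SR and hnRNP medians lie at 0.16 and 0.15, and 1 of the 28 genes is coloured, Srsf5.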

How the data were processed

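Total RNA of sorted splenic NKC from 3 Runx3-/- and 3 WT mice was read on 6 Affymetrix mouse arrays. The authors processed and normalized the arrays with GC-RMA in Partek (versions not given) and deposited log2 signals, so a change in total RNA cannot be seen. The deposited signals were close but not identical in distribution, with 37.8% to 39.4% of probe sets at log2 5 or more. The labels and the study's methods name different labelling kits. Of 45101 probe sets, 64 were controls, 34945 had 1 symbol, 932 several and 9160 none listed in the annotation used.

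The groups were compared in R 4.3.3 with limma 3.58.1 (lmFit, eBayes) on the 19120 probe sets at log2 5 or more on at least 1 array, with no covariate and BH adjustment over all. The background level of the study was not found, and log2 5 stood in for it. Its thresholds, p under 0.05 and 1.5-fold, gave a second rule. Genes were read by their brightest probe set (9545 genes), and differences between probe sets were fitted over 5425 pairs. Adjusted p values of genes in the other splicing lists come from the fit over genes. "At least" before a fold means that values under 5 were raised to 5. The fit was tested on simulated data. With 3 arrays per group, their number sets the precision. No 2 arrays were copies (at most 0.0111% identical values).

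Members, lists and tests were chosen with earlier results of these data known. Array values are given for members at the thresholds, the brightest and dimmest genes, the 6 pairs with the smallest p and, chosen after their values were seen, Srsf6, Hnrnpa1, Hnrnpl and the brightest probe sets of called genes. In other lists up to 6 genes at the thresholds are named, and Srpk1, Srpk2, Clk2 and Clk3 were added. Deviations of same-numbered arrays correlated at 0.00, -0.16 and 0.13, and those of differently numbered arrays at -0.21 to 0.21. These values gave no sign of pairing by replicate number. With so few arrays per group they cannot show whether the mice were paired. Alternatives left out each array, weighted arrays, added a replicate block or changed the normalization, filter, floor, moderation or probe set types.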

Additional observations from a re-analysis of the deposited data

How the results depend on the processing

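None of the 6 called probe sets, the 6 pairs, the family medians and Runx3 changed direction under the alternatives run, and the other values were not followed through them. Srsf5, Srsf10, Hnrnpdl 1424252_at and Hnrnpu 1434390_at met the thresholds in all 16. The number of members called higher, 5, was 8 with each array centred on its median, 13 with array weights and 3 to 12 with 1 array left out. The share of all probe sets called higher is not given by setting. The share of all called in either direction was 5.21% with no filter and 9.33% to 20.1% with 1 array left out. The members' share called in either direction was above that of all without Runx3-/- replicate 1 (14.3% against 13.1%), without WT replicate 3 (12.05% against 9.75%) and with no filter (6.59% against 5.21%). The number called lower, 1, was 2 with no filter on low values and 1 to 2 with 1 array left out. Members passing BH 5% numbered 0 to 1 with 1 array left out, the 1 being Hnrnpu 1434390_at without WT replicate 1, which did not pass with its values under log2 5 raised to 5 (adjusted p = 0.0767, limma). Member genes called higher, 1, were 2 with median centring, with quantile normalization and with the mean of a gene's probe sets, and 1 to 3 with 1 array left out. Probe set pairs with p under 0.05, 8, were 4 without probe sets ending in _x_at or _s_at and 3 to 7 with 1 array left out. The matching shares of all genes and of all pairs in these settings are not given here. Runx3 passed BH 5% with array weights (-2.59, adjusted p = 0.0459, limma) and without WT replicate 1 (-2.83, adjusted p = 0.0441, limma). Its change ranged from -2.83 to -2.10 with 1 array left out. With the replicate number as a block, 2 members were called lower, the added one being Srsf10 1418527_a_at at -0.73, and 5 higher. The causes of these shifts were not tested. Signals under log2 5 follow the background model, so folds of Hnrnpu 1434390_at and Hnrnpd 1457568_at are bounds, and 7 member probe sets under log2 5 on every array were not tested.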

Other observations

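Probe sets annotated to several symbols were left out of the families, and 7 of them include an hnRNP A type gene. The 3 that list Hnrnpa1 with related pseudogenes changed by 0.13, 0.39 and 0.37 (log2, Runx3-/- minus WT), and the 4 that list Hnrnpa3 with Gm6793 by 0.38, 0.45, 0.04 and 0.55. None met the study's thresholds, and the largest change was that of 1452774_at, at 11.27, 11.36 and 11.15 in Runx3-/- and 11.05, 10.86 and 10.21 in WT.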
